A study of Homo sapiens with 30 samples.

Results

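The miR-512-3p mimic was compared with its control in HepG2 cells that were exposed to sorafenib for 24 h. HepG2 is an established human liver cancer cell line, and sorafenib is an oral inhibitor of several kinases used against advanced hepatocellular carcinoma. The comparison held 6 of the 30 libraries of the study, chosen by their labels. They were 3 libraries of cells transfected with a miR-512-3p mimic (M512_sorafenib) and 3 of cells transfected with a mimic control (MC_sorafenib). Both groups were transfected with Lipofectamine, received sorafenib at 10 µM 24 h later and were lysed 24 h after the drug. The same mimic and control in cells that received the solvent dimethyl sulfoxide (M512_DMSO and MC_DMSO, 3 libraries each) gave a second comparison of other libraries, although all were fitted together and shared the estimate of the spread. Cells that carried a mimic of another miRNA, miR-222-5p, and received sorafenib (M222_sorafenib, 3 libraries) are given as a reference level only. The replicates of a group are 3 libraries of 1 cell line, and the labels do not say whether they came from separate cultures on separate days, so p-values measure the spread between these libraries. A mimic raises a miRNA far from its own regulation, which limits it as a model of the endogenous miRNA.

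A miRNA is a short RNA that guides Argonaute proteins to messenger RNAs. Pairing rests mainly on the seed (bases 2 to 8 of the miRNA, counted from its 5′ end), which binds a complementary site, usually in the 3′ untranslated region (UTR). Argonaute then recruits proteins of the TNRC6 family and the CCR4-NOT deadenylase, the poly(A) tail is shortened and the message decays. The usual mark of an active mimic is therefore a modest fall of many messages that carry the site. An A right after the site is known to strengthen it.

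The mature sequence of miR-512-3p in RefSeq (GRCh38.p14) is shown with its seed in capitals, because each site below is read against it. It has 22 bases and is encoded by MIR512-1 (chr19:53666729-53666750, + strand) and MIR512-2 (chr19:53669213-53669234, + strand). Of 2370 human mature miRNA names in that table, 1 has this seed, namely miR-512-3p itself. A further 12 names, all from the miR-302, miR-372, miR-373 and miR-520 group, have bases 2 to 8 equal to bases 1 to 7 of miR-512-3p, so their seed is shifted by 1 base. miR-372-3p, the product of another gene of chromosome 19, is printed beside it for that reason.
miR-512-3p: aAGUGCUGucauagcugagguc
miR-372-3p: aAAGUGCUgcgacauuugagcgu

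The 7-base site for miR-512-3p is CAGCACT, and with an A after it the 8-base site is CAGCACTA. Of the genes called lower below, 11 carried an 8-base site in the 3′ UTR of their canonical transcript (GENCODE release 44, GRCh38). These 11 sites are printed with the bases before them, the 7-base site in capitals and the A after it in lower case. All are read in the direction of the message.
SLC35F6 (chr2:26778747-26778776, + strand): tcagctctctggacccctcctaCAGCACTa
PLLP (chr16:57256578-57256607, - strand): gactggggcccacccttctcacCAGCACTa
DHX40 (chr17:59607226-59607255, + strand): ctactttgccagttatttcagaCAGCACTa
CDS1 (chr4:84649972-84650001, + strand): catatttattgtattaaacaatCAGCACTa
GLTP (chr12:109851442-109851471, - strand): tggtttgcacagcccagcctcaCAGCACTa
TNFAIP1 (chr17:28346194-28346223, + strand): gtcacagtcttgaatgtataaaCAGCACTa
PPARA (chr22:46235404-46235433, + strand): tttccaggagttctgaagctgaCAGCACTa
IRF2 (chr4:184388373-184388402, - strand): ttcttgtgaatatgtacataggCAGCACTa
CCDC6 (chr10:59792457-59792486, - strand): tttaccaaacataccaataattCAGCACTa
SPOP (chr17:49600223-49600252, - strand): ttgtggccccagacttttaaaaCAGCACTa
PSMA4 (chr15:78550621-78550650, + strand): ttaggaacattaaacagcacttCAGCACTa

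In sorafenib, 47 genes differed between the miR-512-3p mimic and its control, 42 of them lower and 5 higher with the mimic. A gene was called when the p of the edgeR quasi-likelihood F test, adjusted by the Benjamini-Hochberg method over the 13244 genes tested, was under 0.05. The share called was 0.355% of the genes tested (0.317% lower and 0.0378% higher). An unadjusted p under 0.05 was found for 1465 genes (11.1%). In all 47, the 3 libraries of one group lay above the 3 of the other, as they did in 14.0% of all genes tested. Log2 fold changes of the 42 lower genes ran from -2.60 to -0.86 with a median of -1.43, while the median over all genes tested was -0.01. Their mean level in MC_sorafenib was 11.0 to 283.3 CPM (counts per 1000000 counts of the library, TMM-scaled) with a median of 55.0 CPM, so the called genes were of low to middle abundance. Levels below are in CPM and are listed from replicate 1 to replicate 3, and the error of a log2 fold change is its standard error (SE).

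**Figure D1:**
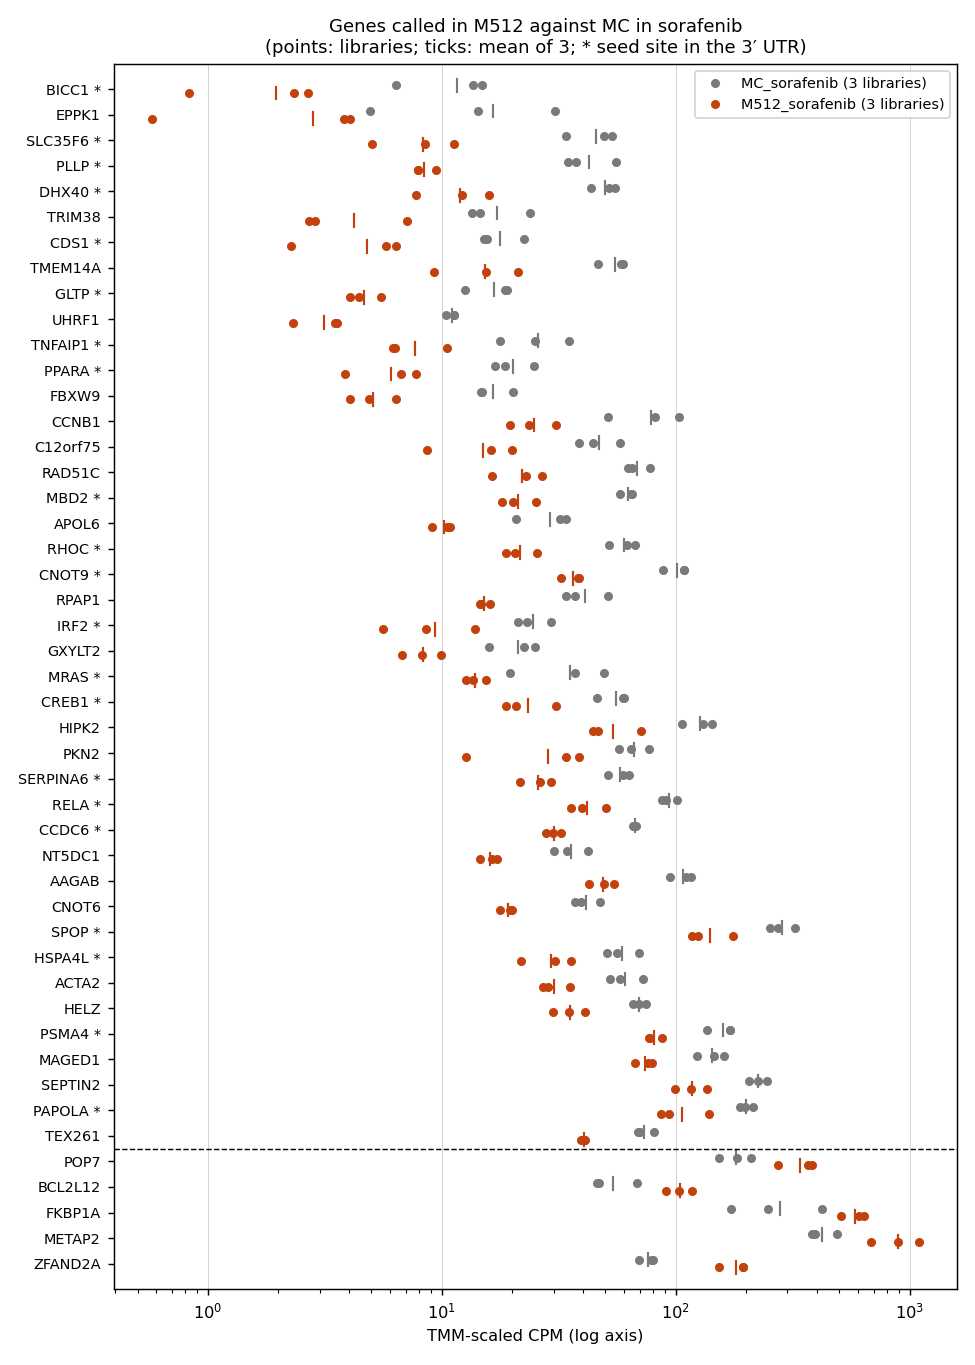
Level of the 47 called genes (TMM-scaled CPM, log axis) in the 3 MC_sorafenib libraries (grey) and the 3 M512_sorafenib libraries (orange), with a tick at each mean and an asterisk at genes with a 7-base seed site. The 42 genes above the dashed line were lower and the 5 below it higher with the mimic, and in each the points of the groups do not overlap.

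The 6 libraries held 4939876 to 8574340 counts, and 13394 to 16582 genes had a count. A count of 0 allows up to 0.350 to 0.607 CPM (3 counts, counting error only). M512_sorafenib replicate 3 stood apart from the other libraries of its group in chi-square and mitochondrial share, but not in correlation. It had a chi-square per degree of freedom of 49.4 and 66.2 against replicates 1 and 2, which gave 29.6 against each other, and 17.5% of its counts came from mitochondrial DNA against 24.2% in both others. Its correlation of log2 CPM was 0.9322 with replicate 1 and 0.9115 with replicate 2, which gave 0.9051 with each other. M512_sorafenib replicate 3 was also the deepest of the 6 libraries (8574340 counts) and had the most genes with a count (16582). The chi-square was taken on raw counts and can rise with depth, and the part of depth was not tested. Within MC_sorafenib, 20.2% to 23.9% of counts were mitochondrial and replicate 2 had the lowest total. Summed over the 10 liver cell markers, the level per total count was 8915 to 11820 CPM in MC_sorafenib and 7917 to 10840 CPM in M512_sorafenib. Of 6 fibroblast markers, 4 had no count in the 6 libraries (COL1A2, COL3A1, DCN and LUM), and their sum was 0.287 to 2.83 CPM in MC_sorafenib and 0 to 3.73 CPM in M512_sorafenib. Of 5 endothelial markers, VWF, CDH5, KDR and TEK had no count, and their sum was 0 to 1.43 CPM in MC_sorafenib and 0 to 0.323 CPM in M512_sorafenib. Of 6 immune markers, PTPRC and CD3E had no count, and their sum was 98.1 to 162.4 CPM in MC_sorafenib and 105.8 to 189.1 CPM in M512_sorafenib, most of it LYZ (lysozyme), at 127.8 and 138.6 CPM on average.

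Messages with an 8-base site included several of the largest differences. SLC35F6, a membrane protein of the solute carrier 35 family, was at 34.1, 53.5 and 49.4 CPM in MC_sorafenib and at 5.03, 8.44 and 11.3 CPM in M512_sorafenib. The highest mimic library was thus far under the lowest control library, and the log2 fold change was -2.44 ± 0.29 (adjusted p = 0.0001435). DHX40, a putative RNA helicase with 3 sites in its UTR, was at 54.7, 51.7 and 43.4 CPM with the control and at 7.74, 15.9 and 12.1 CPM with the mimic (log2 fold change -2.06 ± 0.26, adjusted p = 0.0001435). PLLP (plasmolipin, a membrane protein of myelin and epithelia) was at 55.3, 37.5 and 34.7 CPM with the control and at 7.93, 7.87 and 9.40 CPM with the mimic (log2 fold change -2.33 ± 0.37, adjusted p = 0.002294). In all 3 of these genes the call held when any 1 of the 6 libraries was left out.

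PPARA, GLTP and CDS1 also had an 8-base site and were lower with the mimic. PPARA, the nuclear receptor that drives fatty acid oxidation genes in liver, carried 4 sites and was at 24.9, 16.8 and 18.7 CPM with the control and at 7.74, 3.84 and 6.67 CPM with the mimic. Its log2 fold change was -1.72 ± 0.32 (adjusted p = 0.01004). GLTP, which moves glycolipids between membranes, was at 12.6, 18.6 and 19.0 CPM with the control and at 4.06, 4.41 and 5.48 CPM with the mimic (-1.83 ± 0.38, adjusted p = 0.02535). CDS1, which makes CDP-diacylglycerol for phospholipid synthesis, was at 22.5, 15.2 and 15.6 CPM against 6.38, 5.76 and 2.26 CPM (-1.91 ± 0.42, adjusted p = 0.03637). All 3 lay low, and the call of CDS1 was lost in each of the 6 fits that left out 1 library, while that of PPARA was kept in 5 of them and that of GLTP in 1.

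SPOP and TNFAIP1, adaptors that bring substrates to cullin-3 ubiquitin ligases, also carried an 8-base site. SPOP was the most abundant of the lower genes, at 323.1, 252.9 and 273.9 CPM with the control and 124.8, 175.8 and 117.5 CPM with the mimic (log2 fold change -1.02 ± 0.20, adjusted p = 0.02262). TNFAIP1 was at 17.7, 35.0 and 24.9 CPM with the control and 6.19, 10.6 and 6.31 CPM with the mimic (-1.75 ± 0.31, adjusted p = 0.006037). PSMA4, a subunit of the core of the proteasome, has 3 sites. The last 2 of them begin 8 bases apart, so that the whole of the earlier one stands in lower case inside the sequence printed for PSMA4. PSMA4 was at 135.6, 169.6 and 169.9 CPM with the control and 76.6, 87.1 and 77.2 CPM with the mimic (-0.98 ± 0.18, adjusted p = 0.01152). Of these 3 calls, that of TNFAIP1 held in 5 of the 6 fits without 1 library, that of PSMA4 in 3 and that of SPOP in 2.

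The 2 remaining genes with an 8-base site were CCDC6 and IRF2. CCDC6, a coiled-coil protein known as a fusion partner of the RET kinase, had closely spaced control values, at 66.3, 67.7 and 65.7 CPM, and was at 32.3, 29.9 and 27.7 CPM with the mimic (log2 fold change -1.15 ± 0.20, adjusted p = 0.005981). IRF2, a transcription factor of the interferon regulatory family, was at 29.3, 21.1 and 23.0 CPM with the control and 8.51, 13.8 and 5.59 CPM with the mimic (-1.41 ± 0.30, adjusted p = 0.03351). CCDC6 and IRF2 complete the list here and were chosen after their values were seen.

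Of the 10 lower genes with a 7-base but no 8-base site, CNOT9 and RELA were among the most abundant. CNOT9 is a subunit of the CCR4-NOT deadenylase through which miRNAs act. It was at 108.5, 108.2 and 88.2 CPM with the control and 38.1, 32.4 and 38.7 CPM with the mimic (log2 fold change -1.48 ± 0.18, adjusted p = 0.0001435). RELA, the p65 subunit of NF-kB, was at 101.1, 87.1 and 91.2 CPM with the control and 50.3, 35.5 and 39.8 CPM with the mimic (-1.15 ± 0.22, adjusted p = 0.01354). MBD2, which binds methylated CpG, was at 64.8, 57.9 and 64.3 CPM against 17.99, 25.3 and 20.1 CPM (-1.56 ± 0.21, adjusted p = 0.0002792). RHOC, a small GTPase of the actin cytoskeleton, was at 66.7, 51.9 and 61.7 CPM against 20.5, 25.5 and 18.8 CPM (-1.48 ± 0.24, adjusted p = 0.002889). Calls for CNOT9, MBD2 and RHOC held in all 6 fits without 1 library, whereas that for RELA held in 2.

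BICC1, an RNA-binding protein with 2 sites, gave the largest log2 fold change among the called genes (-2.60 ± 0.53, adjusted p = 0.02278). Its levels were low, at 14.8, 13.6 and 6.37 CPM with the control and 2.32, 2.69 and 0.833 CPM with the mimic, and its call held in 2 of the 6 fits. PAPOLA, the canonical poly(A) polymerase, was at 188.8, 197.1 and 212.8 CPM with the control and 138.9, 86.8 and 93.2 CPM with the mimic (log2 fold change -0.91 ± 0.18, adjusted p = 0.02278). HSPA4L, an HSP110-type chaperone, had 3 sites and a log2 fold change of -1.01 ± 0.23 (adjusted p = 0.0448). The list of genes with a 7-base site is completed by MRAS, CREB1 and SERPINA6, at log2 fold changes of -1.34, -1.24 and -1.17. SERPINA6, which encodes the corticosteroid-binding globulin of plasma, kept its call in all 6 fits and was chosen after its values were seen.

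The remaining 21 of the 42 lower genes had no 7-base site. CCNB1 (cyclin B1, the partner of CDK1 at entry into mitosis) was at 81.4, 103.1 and 51.2 CPM with the control and 30.8, 19.6 and 23.7 CPM with the mimic (log2 fold change -1.67 ± 0.25, adjusted p = 0.001101). RAD51C, which acts in homologous recombination, was at 62.4, 65.2 and 77.6 CPM against 22.8, 16.3 and 26.9 CPM (-1.63 ± 0.23, adjusted p = 0.0006944). TMEM14A, a small membrane protein, was at 46.5, 59.4 and 58.5 CPM against 21.1, 9.21 and 15.5 CPM (-1.84 ± 0.25, adjusted p = 0.0004118). These 3 calls held in all 6 fits without 1 library. RAD51C was chosen after its values were seen.

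UHRF1, which keeps DNA methylation through replication, was at 11.3, 11.3 and 10.4 CPM with the control and 3.48, 2.30 and 3.57 CPM with the mimic (log2 fold change -1.80 ± 0.40, adjusted p = 0.0448), and its call was lost in each of the 6 fits. EPPK1 (epiplakin, which binds intermediate filaments) was at 14.2, 30.4 and 4.92 CPM against 4.06, 0.576 and 3.81 CPM, so the groups were separated by little, and leaving out MC_sorafenib replicate 2 moved its log2 fold change from -2.50 to -1.71 (adjusted p = 0.191). TRIM38, an E3 ubiquitin ligase, and FBXW9, an F-box protein, had log2 fold changes of -2.05 ± 0.40 and -1.70 ± 0.35. C12orf75 was at 38.5, 44.2 and 57.8 CPM against 16.3, 8.64 and 19.99 CPM (-1.64 ± 0.30, adjusted p = 0.009884).

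Among the more abundant genes without the site were SEPTIN2 (a filament-forming GTPase of cytokinesis), MAGED1, HIPK2 (a kinase that phosphorylates p53), AAGAB, which assembles the AP-2 adaptor, TEX261 and the helicase HELZ. SEPTIN2 was at 205.0, 223.9 and 245.3 CPM with the control and 116.1, 99.6 and 135.3 CPM with the mimic (log2 fold change -0.94 ± 0.19, adjusted p = 0.02278). HIPK2 was at 130.3, 142.4 and 106.5 CPM against 44.1, 71.0 and 46.4 CPM (-1.23 ± 0.21, adjusted p = 0.004749). MAGED1, AAGAB, TEX261 and HELZ had log2 fold changes of -0.96, -1.13, -0.86 and -0.98. PKN2, a protein kinase, and ACTA2 (smooth muscle actin) were lower by -1.23 ± 0.28 and -1.01 ± 0.21. The list of lower genes is completed by APOL6, RPAP1, GXYLT2, NT5DC1 and CNOT6, at log2 fold changes of -1.51, -1.44, -1.35, -1.14 and -1.11.

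The 5 higher genes had no 7-base site. ZFAND2A, a proteasome-associated protein induced by arsenite and heat shock, was at 77.9, 80.2 and 69.6 CPM with the control and 193.7, 152.8 and 193.5 CPM with the mimic (log2 fold change 1.25 ± 0.23, adjusted p = 0.009884). METAP2, which removes the first methionine of new proteins, was at 392.4, 487.5 and 382.6 CPM against 890.5, 1096 and 682.8 CPM (1.08 ± 0.22, adjusted p = 0.02535). FKBP1A, the protein that binds FK506 and rapamycin, was at 247.7, 420.8 and 171.8 CPM against 608.8, 638.3 and 509.5 CPM (1.06 ± 0.23, adjusted p = 0.03953). BCL2L12, a relative of BCL2, had a log2 fold change of 0.95 ± 0.21, and POP7, a subunit of RNase P and RNase MRP, one of 0.91 ± 0.18. The call of ZFAND2A held in 5 of the 6 fits without 1 library. Those of METAP2, FKBP1A, BCL2L12 and POP7 held in 2 each. The control level was highest in MC_sorafenib replicate 2 in 4 of these 5 genes, and in 10 of the 42 lower genes. In M222_sorafenib, ZFAND2A was at 120.8, 84.1 and 156.9 CPM, METAP2 at 576.9, 521.1 and 757.6 CPM and FKBP1A at 517.0, 459.7 and 479.7 CPM, each between the means of MC_sorafenib and M512_sorafenib.

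For several lower genes the M222_sorafenib libraries lay at the level of the control. SLC35F6 was at 35.8, 43.5 and 37.99 CPM there, CNOT9 at 99.7, 102.6 and 116.5 CPM, MBD2 at 53.7, 67.3 and 65.1 CPM and RAD51C at 83.1, 70.7 and 74.5 CPM. For SEPTIN2 and HIPK2 they lay lower, at 128.9, 164.5 and 119.3 CPM and at 66.1, 93.0 and 67.0 CPM. This comparison shares the control libraries with the main one.

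Seed sites were more frequent among the lower genes than over all genes. Of 11190 tested genes with a 3′ UTR in the annotation, 2573 (23.0%) had a 7-base site, against 21 of the 42 lower genes (50.0%) and 0 of the 5 higher ones. An 8-base site was found in 11 of the 42 (26.2%) against 2.47% of all UTRs of tested genes. Of the other 21 lower genes, 4 had the shorter site AGCACTA, 6 had the 6-base word AGCACT only and 11 had neither. The 21 genes had 35 sites in all, and 9 of the genes had 2 or more. The median UTR of the lower genes was 2122 bases, against 1319 bases over all, and long UTRs hold more of any word. These counts are descriptions with no test of the list.

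Over all genes the fold change followed the site class. The median log2 fold change in sorafenib was 0.02 in the 8617 genes without a site, -0.09 in the 2297 with a 7-base but no 8-base site and -0.29 in the 276 with an 8-base site. Genes with 1 site and with 2 or more had medians of -0.11 and -0.13. Of the genes with an 8-base site, 74.6% had a negative fold change, against 47.8% of those without a site. The 359 genes with AGCACTA but no 7-base site had a median of -0.21, which was below that of the 7-base class. In DMSO the medians were 0.03 without a site and -0.25 with an 8-base site. In sorafenib the miR-222-5p mimic, which has another seed, gave 0.00171 without a site and -0.0254 with an 8-base site. It gave -0.044 with a 7-base but no 8-base site and -0.0719 with 2 or more sites. With that mimic too, these classes thus lay below the genes without a site, though by less. Against M222_sorafenib instead of the control, the medians were 0.0267 without a site, -0.0481 with at least 1 site and -0.239 with an 8-base site. The cause of the shared part was not tested.

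**Figure D2:**
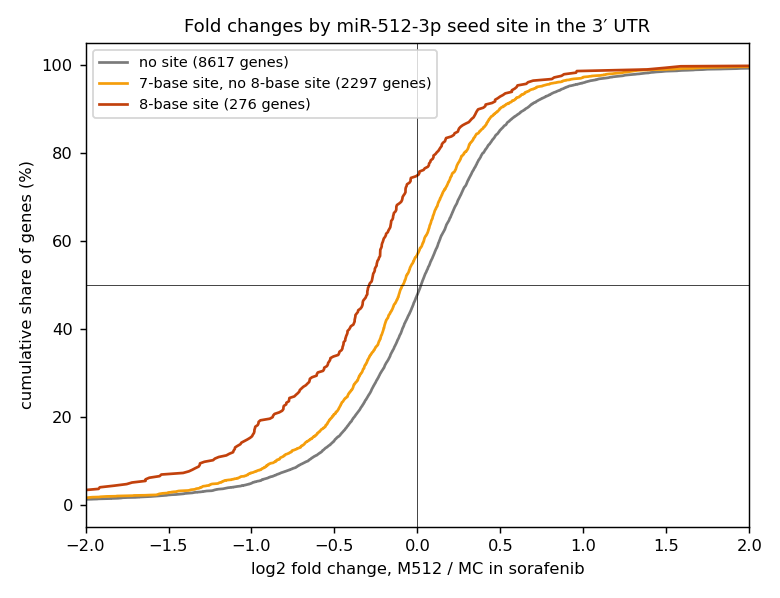
Cumulative share of genes (%) by log2 fold change of the miR-512-3p mimic against its control in sorafenib, for 8617 genes without a site, 2297 with a 7-base but no 8-base site and 276 with an 8-base site. The curves cross 50% at 0.02, -0.09 and -0.29, and the 8-base curve lies to the left over most of the range.

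The difference between genes with and without a site, taken as a median against a median, was -0.13 and was seen in each mimic library. Against the mean of the 3 controls it was -0.14, -0.10 and -0.16 in M512_sorafenib replicates 1, 2 and 3 (SD 0.03). These values share the controls, so the SD holds no spread of the controls. It was also negative within each of 3 equal classes of UTR length. In the shortest class the medians were 0.09 without and -0.16 with a site, in the middle class 0.01 and -0.11, and in the longest class -0.05 and -0.11. Sites in the longest UTRs thus differed least from the genes without one.

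Many of the 7-base sites lie in a word common in Alu repeats. Of 3731 sites in the UTRs, 1354 (36.3%) stood inside the 14-base word TAATCCCAGCACTT, read on the strand of the message. The 673 genes whose sites all lay in this word had a median of -0.06, and 0 of them were called lower, against 0.375% of all genes with a 3′ UTR. In DMSO 3 of these 673 genes were called lower (0.446%, against 0.393% of all). The 1900 genes with a site elsewhere had a median of -0.14, and they held all 21 lower genes with a site. Of the 35 sites in the lower genes, 5 were of this type.

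The same mimic in DMSO gave 84 called genes (0.634% of those tested, 35 higher and 49 lower), from other libraries than those contrasted in sorafenib but with the same fit and its shared estimate of the spread. Of the 47 genes called in sorafenib, 43 had the same sign in DMSO, namely 38 of the 42 lower and all 5 higher. Their median log2 fold changes in DMSO were -0.73 and 0.46, against a median of -0.01 over all genes. Both tests called 14 genes, which is 29.8% of the 47 and 16.7% of the 84. In the other direction, 74 of the 84 genes called in DMSO had the same sign in sorafenib, with medians of -0.78 for the 49 lower and 0.44 for the 35 higher. Of the 21 lower genes with a site 20 were negative in DMSO (median -0.91), and of the 21 without a site 18 were (median -0.56).

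Of the 14 genes called in both treatments, 13 were lower in both: SLC35F6, DHX40, TMEM14A, GLTP, TNFAIP1, C12orf75, MBD2, RHOC, PKN2, RELA, SPOP, HSPA4L and ACTA2. A site was present in 9 of the 13. GLTP was at 24.7, 19.4 and 22.9 CPM in MC_DMSO and at 1.70, 4.64 and 5.41 CPM in M512_DMSO, a log2 fold change of -2.52 ± 0.38. MBD2 was at 52.2, 55.1 and 45.7 CPM against 17.6, 19.5 and 19.2 CPM in DMSO, and its log2 fold change of -1.44 ± 0.21 was close to that in sorafenib (-1.56 ± 0.21). POP7, the 1 gene higher in both, was at 139.6, 126.9 and 129.4 CPM against 271.1, 253.8 and 206.4 CPM in DMSO, with a log2 fold change of 0.88 ± 0.18. In sorafenib it was at 209.6, 182.0 and 152.8 CPM with the control and 381.1, 366.2 and 273.1 CPM with the mimic.

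**Figure D3:**
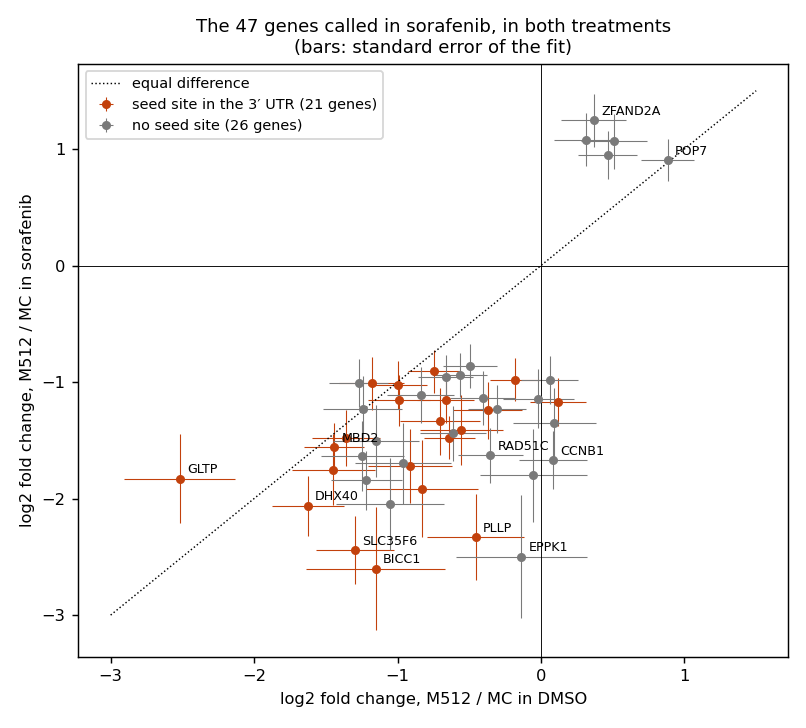
Log2 fold change of the miR-512-3p mimic against its control in DMSO (x axis) and in sorafenib (y axis) for the 47 genes called in sorafenib, with standard errors, by the presence of a seed site. Most points lie below 0 on both axes, as 38 of the 42 lower genes do, while CCNB1 and EPPK1 lie near 0 on the x axis.

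Whether the difference itself depended on the drug was tested by the interaction of the mimic with sorafenib. Of the 47 genes, 0 passed this test after adjustment, against 1 of all genes tested (0.00755%). DESeq2 called 15 genes over the whole table. At an unadjusted p under 0.05 the interaction was found in 20 of the 47 and in 5.04% of all genes, but the 47 were selected on the sorafenib comparison, which is a component of the interaction. Of the 18 lower genes among the 20, each was more negative in sorafenib.

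CCNB1 had the lowest interaction p of the 47 (log2 difference -1.75 ± 0.34, edgeR quasi-likelihood test, adjusted p = 0.1318). In DMSO it was at 73.8, 89.8 and 94.2 CPM with the control and at 82.7, 81.2 and 109.4 CPM with the mimic, and the groups overlapped (log2 fold change 0.08 ± 0.24). SERPINA6 was at 164.9, 114.3 and 151.8 CPM in MC_DMSO and at 177.4, 142.8 and 148.5 CPM in M512_DMSO (0.12 ± 0.19). RAD51C and PLLP were at -0.35 ± 0.23 and -0.46 ± 0.34 in DMSO, and neither difference was called there. The interactions of SERPINA6, RAD51C and PLLP had adjusted p-values of 0.2497, 0.5104 and 0.5449.

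Without MC_sorafenib replicate 2, 39 genes were called, 24 lower and 15 higher. Of the 47 genes, 28 kept the call and 19 lost it, with adjusted p-values up to 0.191. All 47 kept their sign, which was nearly fixed in advance because their groups did not overlap. The 28 included SLC35F6, DHX40, PLLP, PPARA, TNFAIP1, CNOT9, RELA, MBD2, RHOC, CCNB1, RAD51C and SPOP, and among the higher genes ZFAND2A, FKBP1A, METAP2 and BCL2L12. The 19 included BICC1, EPPK1, CDS1, GLTP, UHRF1, PSMA4 and POP7. A further 11 genes were called only then, all 11 higher with the mimic, and in all 11 the left-out library had the highest control level.

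Among those 11 genes, COX7C, a subunit of cytochrome c oxidase, was at 97.5, 229.4 and 96.7 CPM in MC_sorafenib and at 247.4, 349.1 and 342.8 CPM in M512_sorafenib. Its log2 fold change was 1.15 with all libraries (adjusted p = 0.06724) and 1.71 without MC_sorafenib replicate 2 (adjusted p = 0.0019). PTP4A2, a protein tyrosine phosphatase, was at 115.6, 211.5 and 104.4 CPM against 223.3, 290.0 and 229.2 CPM. CHMP2A, a subunit of the ESCRT-III complex that cuts membranes, was at 10.3, 37.1 and 16.4 CPM against 48.2, 44.9 and 54.0 CPM. The others were LRRC58, NR6A1, TPRG1L, PCLAF, SERPIND1, CDK5R1, PLA2G2A and NAGK. These 11 are named because the library was left out, and their values were seen first.

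Leaving out any other single library kept fewer of the 47 calls, 18 to 26 against 28 without MC_sorafenib replicate 2. The 6 fits without 1 library called 18 to 48 genes. The fewest were called without MC_sorafenib replicate 3 (18 genes, all lower and all among the 47). There were 22 without M512_sorafenib replicate 1, 27 without MC_sorafenib replicate 1 and 48 without M512_sorafenib replicate 2. Without M512_sorafenib replicate 3, the library that stood apart in chi-square and mitochondrial share, 38 genes were called, 25 of them among the 47. Without that library and MC_sorafenib replicate 2 together, an alternative added after the data were seen, 36 genes were called (16 higher and 20 lower), 18 of them among the 47. In all 6 fits, 11 genes were called: SLC35F6, PLLP, DHX40, TMEM14A, CCNB1, RAD51C, MBD2, RHOC, CNOT9, SERPINA6 and CCDC6. A further 28 genes were called in at most 2 of the 6. Fitted on the 6 libraries alone, with less information on the spread, edgeR called 0 genes and found 895 at an unadjusted p under 0.05, whereas DESeq2 on the 18 libraries called 237, which held all 47. The numeric cut-offs of the study were a mean normalised count over 30 and a log2 fold change over 0.5. Applied to this contrast with no test, they took 1177 genes (8.89%) as higher and 1113 (8.4%) as lower. The study used them to set genes regulated with the mimic against those of its transfection control, so these numbers are not its selection.

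**Figure D4:**
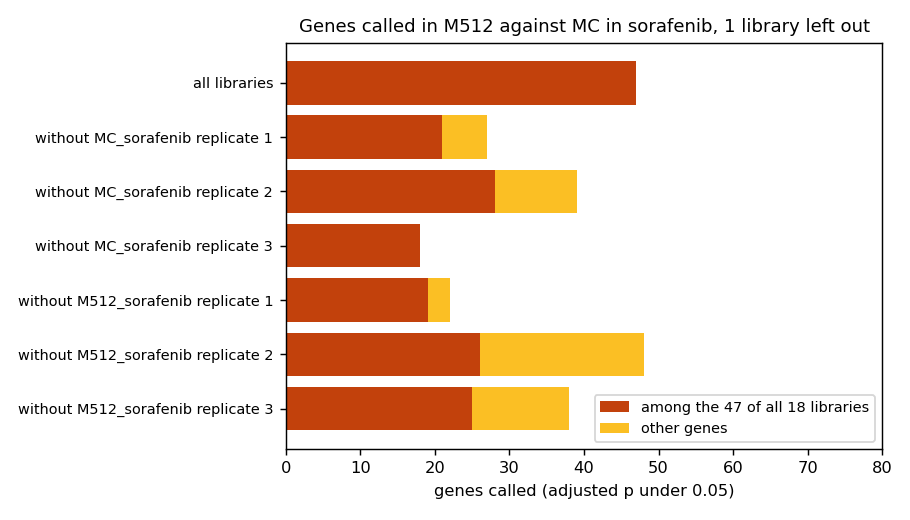
Number of genes called for the miR-512-3p mimic against its control in sorafenib with all libraries and without 1 library at a time. The orange part counts genes among the 47, from 18 to 28 in the fits without 1 library, and the yellow part counts other genes.

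Pathways were described through 34 gene lists, in which 720 genes were tested and 4 were called in sorafenib, namely ZFAND2A, CCNB1, CNOT6 and PPARA. Each list is described by its counts and its median, beside the median of -0.01 and the 0.355% called over all genes. Members of a list move together, so they are not independent. Scaling by total counts instead of TMM shifted the median over all genes by -0.12, and list medians are to be read against that shift.

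The miRNA silencing machinery had a median log2 fold change of -0.27 in sorafenib and -0.20 in DMSO. Of 23 genes 17 were negative, 1 was called lower and 0 higher. The called gene was CNOT6, a catalytic subunit of CCR4-NOT, at 47.6, 37.1 and 39.2 CPM with the control and 17.8, 19.6 and 19.9 CPM with the mimic (-1.11 ± 0.24, adjusted p = 0.03456). Its call was lost in each of the 6 fits without 1 library. CNOT9, described above, is not in this list. The list median was -0.14 without M512_sorafenib replicate 3. AGO4, an Argonaute with 2 sites in its UTR, was at 14.1, 5.73 and 9.26 CPM against 0.967, 6.14 and 3.21 CPM (-1.50 ± 0.52, adjusted p = 0.2388), and the groups overlapped.

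The Hippo pathway and its YAP-TEAD targets, which tie cell contact to growth, had a median of -0.28 in sorafenib and -0.23 in DMSO. Of 20 genes 13 were negative and 0 were called, and the median was -0.16 without M512_sorafenib replicate 3. The transcription factor TEAD1 was at 40.2, 39.5 and 35.9 CPM with the control and 24.0, 20.7 and 15.0 CPM with the mimic (-0.96 ± 0.24, adjusted p = 0.08267). STK4, the upstream kinase MST1, was at 161.0, 151.8 and 133.6 CPM against 96.5, 124.9 and 75.5 CPM (-0.59 ± 0.19, adjusted p = 0.2044). Groups did not overlap in either gene, but neither passed the test.

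Metallothioneins and zinc export had the highest median of the lists with at least 10 genes tested, 0.86, against -0.01 in DMSO. All 10 genes were positive in sorafenib, from 0.18 to 1.24, 5 had an unadjusted p under 0.05 and 0 were called. MT1F was at 655.0, 426.1 and 664.4 CPM with the control and 848.4, 1056 and 1118 CPM with the mimic (0.79 ± 0.25, adjusted p = 0.1722), and MT1A at 26.1, 24.3 and 32.0 CPM against 47.8, 42.2 and 71.5 CPM (0.97 ± 0.29, adjusted p = 0.1529). The list median was 0.68 without MC_sorafenib replicate 2 and 0.72 without M512_sorafenib replicate 3. Metallothionein genes have very similar sequences, so the split of reads among them is uncertain.

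The integrated stress response, in which ATF4 turns on amino acid and redox genes, had a median of 0.40 in sorafenib and 0.09 in DMSO. Of 18 genes 16 were positive, 3 had an unadjusted p under 0.05 and 0 were called. ATF4 was at 380.2, 252.5 and 390.9 CPM with the control and 391.0, 720.7 and 712.2 CPM with the mimic, where 1 mimic library was at the level of the controls (0.83 ± 0.24, adjusted p = 0.1233). The median was 0.20 without MC_sorafenib replicate 2. NRF2 targets, the antioxidant response, had a median of 0.32 with 18 of 22 genes positive and 0 called, and one of 0.20 without M512_sorafenib replicate 3. In DMSO their median was 0.27 and 2 were called higher. GCLM, the modifier subunit of glutathione synthesis, was at 94.0, 78.2 and 117.4 CPM against 223.6, 130.5 and 328.0 CPM (1.24 ± 0.30, adjusted p = 0.07232).

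Endoplasmic reticulum chaperones had a median of 0.30 (0.54 in DMSO and, in sorafenib, 0.16 without M512_sorafenib replicate 3) with 0 of 20 genes called, and the heat shock response one of 0.18 with 1 of 20 called, ZFAND2A. DNA replication genes had a median of 0.28 in sorafenib and 0.36 in DMSO, with 0 of 30 called. In sorafenib it was 0.14 without M512_sorafenib replicate 3 and 0.44 without MC_sorafenib replicate 2. CDC6, which loads the replicative helicase, was at 72.3, 76.6 and 62.4 CPM with the control and 104.1, 106.3 and 99.9 CPM with the mimic (0.55 ± 0.17, adjusted p = 0.1769). Mitosis genes had a median of -0.03, and CCNB1 was the 1 called gene of 25. CDC20, the activator of the anaphase-promoting complex, had the opposite sign to CCNB1, at 88.8, 56.3 and 49.7 CPM against 105.6, 119.6 and 124.5 CPM (0.84 ± 0.24, adjusted p = 0.1256).

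Lists of mitochondria showed no called gene. Nuclear-encoded subunits of the respiratory chain had a median of 0.19 with 60 of 81 genes positive, mitochondrial ribosomal proteins a median of 0.12 with 51 of 77 positive, and the 13 messages of mitochondrial DNA a median of 0.06. Scaled by total counts, the medians of the last 2 lists were -0.01 and -0.07, a move of about the size of the shift over all genes. Without M512_sorafenib replicate 3 the respiratory chain median was 0.12 and that of the mitochondrial messages 0.16, and the latter was 0.02 without MC_sorafenib replicate 2. NDUFA8, a subunit of complex I, was at 82.7, 90.2 and 72.4 CPM with the control and 44.5, 45.5 and 58.3 CPM with the mimic (-0.72 ± 0.20, adjusted p = 0.1176). The mitochondrial share of counts differed between the mimic libraries, as given above, and its part in these medians was not tested.

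Signalling and immune lists were close to the background or mixed. Components of the RAS, RAF and MAPK route, which sorafenib inhibits at RAF, had a median of 0.06 and 0 of 26 called, and the median was -0.02 without MC_sorafenib replicate 2 and -0.24 without M512_sorafenib replicate 3. SOS1, an exchange factor that loads RAS with GTP, was at 34.2, 84.3 and 36.9 CPM against 26.3, 25.1 and 17.6 CPM (-1.17 ± 0.31, adjusted p = 0.1059), and 1 control library stood far above the others. ERK feedback genes had a median of 0.12 (-0.01 without M512_sorafenib replicate 3) with 0 of 16 called. Antigen presentation and the immunoproteasome had a median of -0.23 with 11 of 16 negative and 0 called. UBD, a ubiquitin-like protein of inflamed cells, was at 32.4, 15.2 and 17.2 CPM against 10.1, 9.40 and 3.69 CPM (-1.51 ± 0.39, adjusted p = 0.09894). It was called in DMSO, with a log2 fold change of -3.48 ± 0.42 (adjusted p = 7.982e-05). NF-kB targets and interferon-stimulated genes had medians of -0.12 and -0.11 in sorafenib and -0.48 and -0.47 in DMSO, with 0 called in sorafenib. Without M512_sorafenib replicate 3 the medians in sorafenib were -0.24 and -0.23.

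Of the liver lists, secreted liver proteins had a median of -0.05 with 0 of 33 called and hepatocyte transcription factors one of -0.03 with 1 of 20 called, PPARA. Autophagy (median -0.02, 27 genes), endosomal transport (-0.06, 30 genes) and telomere maintenance (-0.18, 14 genes) had 0 called genes each. The 19 genes that the study named for miR-512-3p were chosen by it on these samples and so are no independent evidence. The study drew its targets from genes that were lower with the mimic and not regulated in its transfection control. That rule reads a change in the control as well, so it is not the contrast of mimic against control used here. The values that follow therefore do not test the selection of the study. Of the 19 genes, 18 were tested and 0 called in sorafenib, with a median of -0.13 in sorafenib and 0.53 in DMSO. APOM, chosen after its values were seen, was called higher in DMSO (1.01 ± 0.19, edgeR quasi-likelihood test, adjusted p = 0.009954). Without MC_sorafenib replicate 2 the median in sorafenib was 0.08. Other lists covered sterol and fatty acid synthesis, apoptosis, p53 targets, epithelial and mesenchymal genes, matrix, insulin-like growth factors and Wnt. Their medians in sorafenib ran from -0.17 to 0.12, with no gene called there. In DMSO 3 of 20 p53 targets were called lower, against 0.37% of all genes. The epithelial and mesenchymal list (19 tested) and the insulin-like growth factor list (11 tested) each had 1 gene called higher in DMSO, against 0.264% of all genes.

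**Figure D5:**
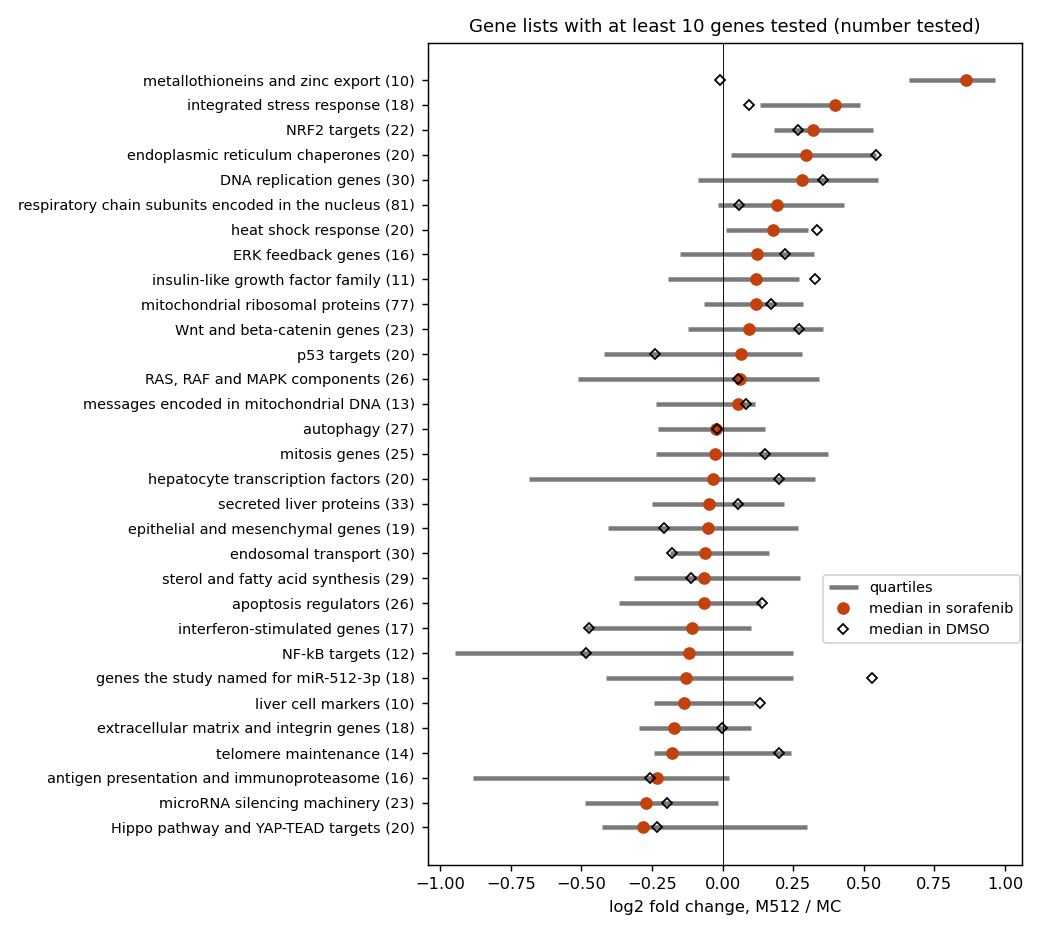
Median log2 fold change of the miR-512-3p mimic against its control in sorafenib (orange), with the range between the quartiles (grey bar), and in DMSO (open diamonds), for lists with at least 10 genes tested. Metallothioneins lie highest in sorafenib at 0.86 and near 0 in DMSO, and the Hippo list lies lowest at -0.28.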

How the data were processed

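Total RNA of HepG2 cells was made into QuantSeq 3′ FWD libraries, whose reads fall close to the 3′ ends of messages. The authors aligned the reads with STAR to GRCh38 and deposited raw counts per Ensembl gene made with HTSeq. The versions of STAR and HTSeq, the annotation used for counting, its strand setting and any molecular identifiers are not given in the sources used here, and without strand, overlapping genes cannot be told apart. The deposited table of normalised values was not used. The table held 60199 lines, of which 92 named no gene (3 counts in all) and were left out. Totals of the 6 libraries compared were 4939876 to 8574340 counts.

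The 18 libraries of 24 h were fitted together in edgeR 4.0.16 (R 4.3.3) with TMM scaling, the filterByExpr filter, 1 coefficient per group and the two-sided quasi-likelihood F test. The common biological coefficient of variation was 0.356. The SE is the size of the log2 fold change divided by the square root of F. P-values were adjusted by the Benjamini-Hochberg method over 13244 genes. Fits were tested on simulated data. Groups came from the labels. DESeq2 1.42.0, other scalings, filters, sets of libraries and the replicate number as a block were alternatives.

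Sites were searched in the 3′ UTR of the canonical GENCODE release 44 transcript on the strand of the message. The UTR used in HepG2 may differ. The members and lists were chosen with earlier results of these data known. Genes are named by a rule: all higher genes, the 15 largest and the 12 most abundant lower genes, and those called in both treatments or in the interaction. From a list come its called genes and otherwise at most the 2 genes with the lowest p. Others complete a list or are named as chosen after their values were seen.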

Additional observations from a re-analysis of the deposited data

Results flagged for a closer look

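IGFBP1, a secreted protein that binds insulin-like growth factors, was the 1 gene whose response to the miR-512-3p mimic differed between sorafenib and DMSO by the interaction test (log2 difference -3.71 ± 0.53, edgeR quasi-likelihood test, adjusted p = 0.004225). In sorafenib it was at 22.5, 71.3 and 23.2 CPM with the control and 31.3, 40.5 and 63.1 CPM with the mimic, and the groups overlapped (0.22 ± 0.37, adjusted p = 0.8773). In DMSO it was at 29.1, 49.2 and 26.7 CPM with the control and 551.1, 494.5 and 546.0 CPM with the mimic (3.93 ± 0.40, adjusted p = 1.004e-05). The M222_sorafenib libraries were at 21.4, 41.7 and 23.3 CPM.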

How the results depend on the processing

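All 47 genes kept their sign under every alternative run, which was nearly fixed in advance because their groups did not overlap. The number called varied. In sorafenib DESeq2 called 237 genes (87 higher, 150 lower; all 47 among them), total counts in place of TMM 91 (3 and 88), no filter 169 (84 and 85), the 12 libraries of MC and M512 alone 27 (2 and 25), and the 6 libraries compared alone 0, with 895 genes at an unadjusted p under 0.05. The numeric cut-offs of the study, applied to this contrast with no test, took 2290. Median-ratio factors gave 43 and a filter of 10 counts in 3 libraries 41. Leaving out 1 library gave 18 to 48 in sorafenib, 18 to 44 in DMSO and 1 to 3 in the interaction. In DMSO, against 84, DESeq2 called 232, no filter 292 and the 12 libraries 43. For the interaction, against 1, DESeq2 called 15 and no filter 28. The site difference of -0.13 was -0.29 with the 8-base site and -0.24 with AGCACTA, and -0.16 to -0.12 without 1 library. The causes of these changes were not tested.

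With the replicate number as a block (replicate block), 89 genes were called in sorafenib (26 and 63, all 47 among them), 123 in DMSO and 1 in the interaction, and the site difference was -0.14. The labels name no shared batch. Deviations of same-numbered libraries correlated at 0.05, 0.05 and 0.15 in sorafenib, where each library correlated best with its own number. In DMSO they correlated at 0.07, -0.04 and -0.07. In MC and M222, in both treatments, replicate 1 had the highest total and the fewest genes with a count. Replicate 2 had the lowest total and the most genes there. M512_DMSO differed only in that replicate 3 had the most genes, whereas in M512_sorafenib replicate 1 had the lowest total and replicate 3 the highest. The numbers were not taken as pairs in the main fit, and whether they mark a shared batch was not tested. The calls of CDS1, UHRF1, NT5DC1, CNOT6 and TEX261, with mean control levels of 17.8, 11.0, 35.5, 41.3 and 73.3 CPM, were lost whichever library was left out, and the part of depth was not tested.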
